A study of Mus musculus with 4 samples.

Results

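The 9 genes of the eIF2α switch were read in dorsal root ganglia, which house the cell bodies of sensory neurons. They were chosen by symbol from the deposited table: the 4 kinase genes Eif2ak1, Eif2ak2, Eif2ak3 and Eif2ak4, the substrate gene Eif2s1, the phosphatase subunit genes Ppp1r15a, Ppp1r15b and Ppp1cc, and Ddit3. All 9 were among the 48431 genes listed, and all 9 reached the mean of 1 CPM (reads per 1000000 reads of the library) that was asked of the 14817 genes tested. The tissue came from male mice of the strain labelled SW and genotype WT, given methylglyoxal (MGO), a reactive by-product of glycolysis, by intraperitoneal injection at 2 mg/kg for 6 days. All 4 libraries, replicates 1 to 4, belong to this 1 group. No untreated group was analysed here, so no value below measures a response to MGO. Whether each library stands for its own mouse is not labelled, so p-values rest on library-to-library spread that may be technical.

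eIF2 is the factor that brings the initiator tRNA to the ribosome. When a kinase phosphorylates its α subunit, eIF2 blocks its own exchange factor, eIF2B, and most translation starts become rarer, while a few mRNAs with upstream reading frames, such as that of the transcription factor ATF4, are translated more. PERK (Eif2ak3) responds to unfolded protein in the endoplasmic reticulum, PKR (Eif2ak2) to double-stranded RNA, HRI (Eif2ak1) to low haem and to mitochondrial stress, and GCN2 (Eif2ak4) to uncharged tRNA. Protein phosphatase 1 (PP1) reverses the mark when its catalytic subunit is held by a regulatory subunit, either the stress-induced GADD34 (Ppp1r15a) or the constitutive CReP (Ppp1r15b), and Ddit3 encodes CHOP, a transcription factor made late in a sustained response. mRNA levels say nothing of how far eIF2α was phosphorylated.

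The promoters of 3 genes are shown because these genes carry the element for which their stimulus is known (Eif2ak2) or moved most between the libraries (Ppp1r15a and Ddit3). Each runs from 250 bases before the RefSeq start to 50 bases after it, on the gene's own strand (GRCm38.p6), and capitals mark a motif searched on both strands. They lie at chr7:45526219-45526518 (minus strand), chr10:127290543-127290842 (plus strand) and chr17:78882523-78882822 (minus strand).
Ppp1r15a: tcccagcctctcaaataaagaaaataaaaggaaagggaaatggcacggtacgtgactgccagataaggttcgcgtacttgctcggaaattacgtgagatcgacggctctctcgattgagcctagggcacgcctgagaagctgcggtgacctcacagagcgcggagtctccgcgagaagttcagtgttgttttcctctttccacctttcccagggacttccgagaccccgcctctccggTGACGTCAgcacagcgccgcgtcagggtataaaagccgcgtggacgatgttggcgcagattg
Ddit3: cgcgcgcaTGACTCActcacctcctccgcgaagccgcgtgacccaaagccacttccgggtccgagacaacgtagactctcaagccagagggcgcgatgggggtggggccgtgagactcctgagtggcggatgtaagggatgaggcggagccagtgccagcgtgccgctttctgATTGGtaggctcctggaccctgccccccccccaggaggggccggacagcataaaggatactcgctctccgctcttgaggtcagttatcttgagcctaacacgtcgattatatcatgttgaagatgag
Eif2ak2: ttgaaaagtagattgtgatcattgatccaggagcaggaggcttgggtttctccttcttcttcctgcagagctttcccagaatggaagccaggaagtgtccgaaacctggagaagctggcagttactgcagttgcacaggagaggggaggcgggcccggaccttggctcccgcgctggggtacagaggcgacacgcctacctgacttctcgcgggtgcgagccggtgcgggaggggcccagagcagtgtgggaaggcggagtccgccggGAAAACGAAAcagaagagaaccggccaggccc

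In Ppp1r15a the capitals are the cAMP response element TGACGTCA, which factors of the CREB and ATF families bind, beginning 12 bases before the start. It was found in 1.79% of the 32851 promoters of the table. In Ddit3 they are an AP-1 site, TGACTCA, beginning 242 bases before the start, and a CCAAT box, read as ATTGG on this strand. These letters were found in 5.2% and 37.4% of promoters. In Eif2ak2 they are the core of the interferon-stimulated response element, GAAA repeated after any 2 bases, which was found in 3.44% of promoters, and also in those of Ppp1r15a and Eif2s1. Eif2ak3 held 6 CCAAT boxes. Of the 8 member genes matched in the table, none held TGATGNAA, a core of the C/EBP-ATF response element (3.97% of promoters), or the ER stress response element, CCAAT and CCACG with 9 bases between them (0.119%), within this window. Only exact letters were searched. A near match, CCAAT and GCACG with 9 bases between them on the opposite strand, stands in Ddit3 and was not counted. A match is a description of the letters only.

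The 5′ leaders of the mRNAs also differ. In the GENCODE transcript with the longest coding region (the longest transcript where several tie), Ppp1r15b had a leader of 604 bases with 3 upstream ATG triplets, and Ppp1r15a had leaders of 283 and 764 bases with 3 and 7. Ddit3 had 186 bases with 2 upstream ATGs, Eif2ak3 211 bases with 3, Eif2s1 363 bases with 2 and Eif2ak2 190 bases with 1. Eif2ak1, Eif2ak4 and Ppp1cc had none. Over 20796 genes the median leader was 165 bases, and 53.7% had at least 1 upstream ATG.

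The libraries held 5576819 to 10138773 reads, as implied by the smallest step between values, and stood apart as 2 pairs. Replicates 1 and 2 list the 18S ribosomal RNA entries at 0, and replicates 3 and 4 hold 8.26% and 10.8% of reads there. This split is not a group of the study, its origin is not given, and results are therefore also read within each library pair. Of the genes tested, 78.5% did not overlap between the library pairs. The 9 sensory neuron markers summed to 9022 to 10496 CPM over the 4 libraries, and all 9 were above 1 CPM on average, as the tissue label says. Schwann cell and satellite glia markers (6 of 6 found) summed to 29459 and 28400 CPM in replicates 1 and 2 and to 15717 and 15262 CPM in replicates 3 and 4. Of 5 central nervous system glia markers, 3 had means under 1 CPM, and the sum was 6.09 to 8.79 CPM. Skeletal muscle markers summed to 416 to 846 CPM and blood markers to 311 to 986 CPM, both sums higher in replicates 1 and 2. Of the 4 blood markers, 3 were higher there without overlap. The other, Alas2, was higher in replicates 3 and 4 (8.09, 4.46, 16.9 and 11.8 CPM in replicates 1 to 4). The part of cell make-up in the results was not tested, and fewer cells of a type and less RNA per cell cannot be told apart.

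Levels are compared between genes on 2 scales. The deposited scale is CPM, which suits a kit that reads the 3′ ends of transcripts. The other scale divides CPM by the exonic length of the gene and rescales each library to 1000000, and is called per length here. Where reads come from 3′ ends, this division raises short genes, so per-length calls are a check and not equal evidence. Each library gave a difference of log2(CPM + 1) between 2 genes, and these were tested with limma for each member against every other gene, with p-values adjusted over all 133308 pairs by Benjamini-Hochberg. Of the 36 pairs between members, 28 passed at an adjusted p of 0.05, all of them in the same direction in 4 of 4 libraries. In the whole fit 77.1% of pairs passed, so the members were parted from each other about as often as from other genes. Per length, 26 pairs passed, 22 of them calls of the deposited scale in the same direction. Shares of all genes are given in CPM only. Per-length counts therefore have no such share beside them and are not read as a trait of the members.

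**Figure D1:**
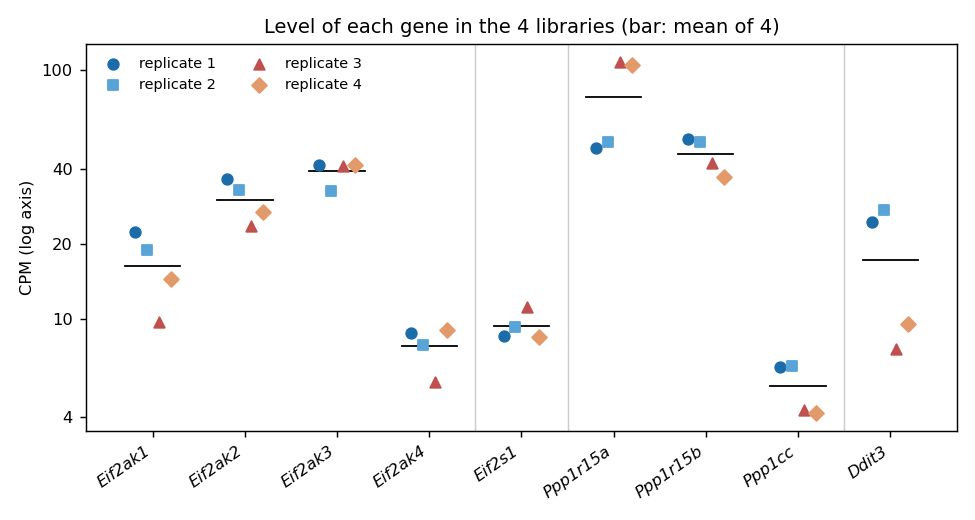
CPM on a log axis for each of the 9 genes in replicates 1 to 4 (points), with the mean of the 4 libraries as a bar and vertical lines between kinases, substrate, phosphatase subunits and Ddit3. Replicates 3 and 4 stand above replicates 1 and 2 for Ppp1r15a and below them for Ddit3, while Eif2s1 stays between 8.44 and 11.1 CPM.

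Among the kinases, Eif2ak3 and Eif2ak2 together made up most of the kinase reads, and Eif2ak4 the least. Eif2ak3, the PERK gene (chromosome 6, 70844515 to 70905245, GRCm38), had 41.5, 32.6, 41.2 and 41.7 CPM in replicates 1 to 4. Replicate 2 was the low library, and the library pairs overlapped. Eif2ak2, the PKR gene (chromosome 17, 78852564 to 78882573), had 36.4, 32.8, 23.7 and 26.7 CPM, with replicates 1 and 2 above replicates 3 and 4. In replicate 2 the kinases were level, at 32.6 CPM for Eif2ak3 and 32.8 CPM for Eif2ak2, and in replicate 3 they were farthest apart. The difference of Eif2ak3 over Eif2ak2 averaged 0.09 (log2) over replicates 1 and 2 and 0.70 over replicates 3 and 4. It did not pass over the 4 libraries (0.39, standard error 0.23, limma adjusted p = 0.155). It passed with the library pair fitted (limma adjusted p = 0.0136) and not on library-pair means (limma adjusted p = 0.584). Fitting the library pair leaves only the spread within pairs as error, so that pass is not read as a ranking.

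Eif2ak1, the HRI gene (chromosome 5, 143817788 to 143904251), had 22.3, 18.9, 9.68 and 14.4 CPM, lower in replicates 3 and 4 without overlap. Eif2ak2 exceeded it 1.83-fold (log2 difference 0.87, standard error 0.21, limma adjusted p = 0.00768, 4 of 4 libraries). Eif2ak4, the GCN2 gene (chromosome 2, 118388618 to 118475234), had 8.78, 7.80, 5.56 and 8.998 CPM, with replicate 3 the lowest and the library pairs overlapping. Eif2ak1 exceeded Eif2ak4 1.92-fold (log2 difference 0.94, standard error 0.22, limma adjusted p = 0.00749, 4 of 4 libraries). Per length the means kept the order, at 18.0 ± 1.74 for Eif2ak3, 16.3 ± 3.57 for Eif2ak2, 8.03 ± 2.88 for Eif2ak1 and 2.89 ± 0.591 for Eif2ak4 (SD, n = 4). Eif2ak3 over Eif2ak2 was not called per length (log2 difference 0.16, limma adjusted p = 0.526, 2 of 4 libraries) and averaged -0.14 in replicates 1 and 2. Both CPM calls, Eif2ak2 over Eif2ak1 and Eif2ak1 over Eif2ak4, were lost when each library pair was counted as 1 value (limma adjusted p = 0.202 and 0.168).

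Against all genes tested, 17.8% were called higher than Eif2ak3 and 62.4% lower (limma). For Eif2ak2 the shares were 22.9% higher and 56.3% lower, and for Eif2ak1 34.3% higher and 40.9% lower. For Eif2ak4 they were 49.5% higher and 25.7% lower, so that it was the kinase gene with the most genes above it.

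As a share of the summed kinase CPM, Eif2ak3 made up 38.1%, 35.4%, 51.5% and 45.4% in replicates 1 to 4. Eif2ak1 made up 20.5%, 20.6%, 12.1% and 15.7%, so its share was lower where that of Eif2ak3 was higher. Eif2ak4 stayed between 6.94% and 9.80%. The sum of the 4 kinases itself was 109, 92.1, 80.2 and 91.8 CPM.

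**Figure D2:**
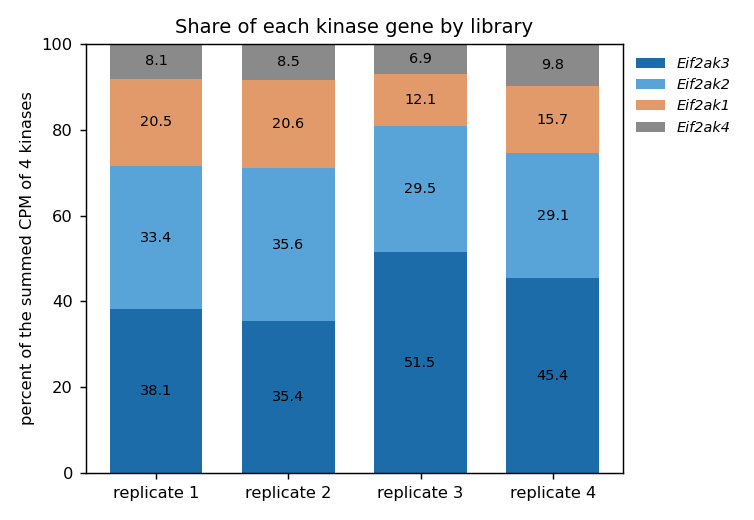
Percent of the summed CPM of the 4 kinase genes held by each of them (stacked bars) in replicates 1 to 4. Eif2ak3 holds 38.1% and 35.4% in replicates 1 and 2 and 51.5% and 45.4% in replicates 3 and 4.

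Eif2ak1 shares exonic sequence with a gene on the opposite strand. Its 3′ end overlaps that of Aimp2, which encodes a scaffold protein of the tRNA synthetase complex (143902704 to 143909847), over 487 bases. Aimp2 had 21.01, 22.2, 4.30 and 3.05 CPM, and like Eif2ak1 it was lower in replicates 3 and 4. The use of strand in counting is not given in the sources used here, so reads of the overlap may be counted for either gene. Of the other opposite-strand genes over the kinases, Ankrd61 (over Eif2ak1) had a mean of 0.0836 CPM, Gm26637 (over Eif2ak2) 0.278 CPM and Gm43292 (over Eif2ak3) 1.11 CPM, and n-R5s29 (over Eif2ak2) is listed at 0. Over the phosphatase genes, Gm26616 (over Ppp1r15b) had a mean of 0.0448 CPM and Tulp2 (over Ppp1r15a) 0.0525 CPM.

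Eif2s1, which encodes the eIF2α subunit that all 4 kinases phosphorylate (chromosome 12, 78861819 to 78887010), was among the lower genes of the set. It had 8.48, 9.25, 11.1 and 8.44 CPM, which stand for 86, 83, 62 and 61 reads, and the library pairs overlapped. Its coefficient of variation over the 4 libraries was 13.4%. Among the genes tested, 45.9% were called higher than Eif2s1 and 30.3% lower (limma). Eif2ak3 exceeded Eif2s1 3.90-fold (log2 difference 1.96, standard error 0.21, limma adjusted p = 0.000214). The difference averaged 1.94 in replicates 1 and 2 and 1.99 in replicates 3 and 4, nearly the same in both library pairs. In replicates 1 to 4 it was 2.16, 1.72, 1.80 and 2.18, so single libraries differed more than these averages. Eif2s1 could not be ranked against Eif2ak4 (log2 difference 0.24, standard error 0.24, limma adjusted p = 0.389, 2 of 4 libraries), but per length it was called higher (log2 difference 0.68, limma adjusted p = 0.0310). The summed kinase CPM was 12.8, 9.96, 7.21 and 10.9 times that of Eif2s1 in replicates 1 to 4.

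The other subunit genes of eIF2 were above Eif2s1. Eif2s2, the gene of eIF2β, had 364, 381, 167 and 172 CPM and was higher in replicates 1 and 2. Eif2s2 exceeded Eif2s1 24.6-fold (log2 difference 4.62, standard error 0.32, limma adjusted p = 4.38e-05, 4 of 4 libraries). Eif2s3x, the X-linked gene of eIF2γ, had 23.8, 22.3, 24.6 and 22.0 CPM, a narrow range that overlapped between the library pairs. Eif2s3x exceeded Eif2s1 2.35-fold (log2 difference 1.23, standard error 0.19, limma adjusted p = 0.00131, 4 of 4 libraries), a call lost when each library pair was counted as 1 value (adjusted p = 0.0663). Eif2s3y, the Y-linked gene of eIF2γ, had 26.5, 24.96, 33.5 and 38.8 CPM, above Eif2s3x in each library and higher in replicates 3 and 4. It also exceeded Eif2s1 (log2 difference 1.62, standard error 0.22, limma adjusted p = 0.000653, 4 of 4 libraries). Reads of eIF2γ thus came from both genes in these male mice. The proteins of the 3 subunits stand in equal number in the complex, whereas the reads of their genes did not.

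Of the 10 other genes listed for eIF2 and eIF2B, 8 were called higher than Eif2s1, 1 lower and 1 neither, beside the 45.9% of all genes that were called higher (limma). Per length 9 were called higher and none lower, with 1 not called, but the share of all genes was not computed on that scale. The one lower on the CPM scale was Eif2b1, the α subunit of eIF2B through which phosphorylated eIF2 is sensed, at 4.34, 5.01, 1.26 and 0.969 CPM. Eif2b5, the catalytic subunit of eIF2B, had 113, 129, 192 and 178 CPM and was higher in replicates 3 and 4.

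The phosphatase genes spanned the widest range of the set. Ppp1r15a, the gene of GADD34 (chromosome 7, 45522916 to 45526268), had 48.7, 51.4, 108 and 105 CPM, and replicates 3 and 4 were above replicates 1 and 2. Ppp1r15b, the gene of CReP (chromosome 1, 133131143 to 133139783), had 52.7, 51.1, 42.3 and 37.1 CPM, and replicates 3 and 4 were below replicates 1 and 2. In replicates 1 and 2 the ratio of Ppp1r15a to Ppp1r15b was thus 0.925 and 1.00, and in replicates 3 and 4 it was 2.56 and 2.82. Over the 4 libraries they could not be ranked by CPM (log2 difference 0.67, standard error 0.35, limma adjusted p = 0.119, 3 of 4 libraries). With the library pair fitted the difference passed (limma adjusted p = 0.000580), and on library-pair means it did not (limma adjusted p = 0.333). The fit with the library pair uses the spread within pairs only, so its pass is not read as a ranking. Per length, Ppp1r15a was called higher (log2 difference 1.57, standard error 0.34, limma adjusted p = 0.00660), at 73.0 ± 28.5 against 22.8 ± 4.37 for Ppp1r15b (SD, n = 4). Among all genes tested, 8.09% were called higher than Ppp1r15a and 72.2% lower, and 15.6% were called higher than Ppp1r15b and 65.9% lower (limma).

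Ppp1cc, which encodes the γ form of the catalytic subunit of PP1 (chromosome 5, 122158278 to 122175273), was the lowest of the 9 by mean CPM. It had 6.41, 6.46, 4.30 and 4.15 CPM, which stand for 65, 58, 24 and 30 reads, and was lower in replicates 3 and 4 without overlap. The exact 95% Poisson interval of the 24 reads runs from 2.76 to 6.40 CPM and covers counting error only. Ppp1cc lay below Ppp1r15b by 2.83 on the log2 scale in replicates 1 and 2 and by 2.96 in replicates 3 and 4. Over the 4 libraries its log2 difference from Ppp1r15b was -2.89 (standard error 0.19, limma adjusted p = 3.94e-05) and from Ppp1r15a -3.57 (standard error 0.37, limma adjusted p = 0.000197). From Ppp1r15a the library pairs were unequal, at -2.78 (replicates 1 and 2) and -4.36 (replicates 3 and 4). Of all genes tested, 57.7% were called higher than Ppp1cc and 18.1% lower.

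Ppp1cc is 1 of 3 genes for this catalytic subunit, and most of their reads came from another. Ppp1cb, the β form, had 112, 100.4, 84.0 and 63.1 CPM, and Ppp1ca, the α form, had 14.4, 13.8, 3.59 and 3.74 CPM. Ppp1cb therefore held 84.4%, 83.2%, 91.4% and 88.9% of their summed CPM, and Ppp1cc held 4.69% to 5.85%. Ppp1cb exceeded Ppp1cc 14.3-fold (log2 difference 3.83, standard error 0.20, limma adjusted p = 2.50e-05, 4 of 4 libraries). Ppp1ca and Ppp1cc could not be ranked (log2 difference 0.43, standard error 0.30, limma adjusted p = 0.236), since Ppp1ca was higher by 1.02 in replicates 1 and 2 but stood at -0.17 in replicates 3 and 4. With the library pair fitted they did pass (limma adjusted p = 0.00804), and on library-pair means they did not (limma adjusted p = 0.550). That pass rests on the spread within pairs only and is not read as a ranking. Per length the shares averaged 63.9% for Ppp1cb, 24.1% for Ppp1ca and 12.1% for Ppp1cc.

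Set against the 3 phosphatase genes, the summed kinase CPM was 1.01, 0.846, 0.518 and 0.630 times theirs in replicates 1 to 4. The sum of the phosphatase genes was 108, 109, 155 and 146 CPM, and its higher level in replicates 3 and 4 came from Ppp1r15a alone of the 3.

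**Figure D3:**
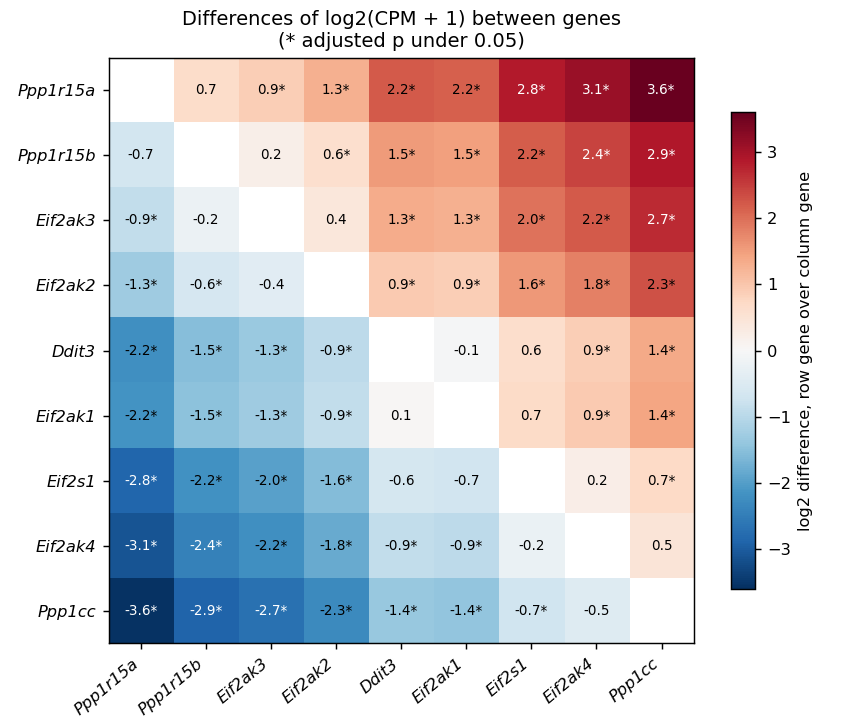
Difference of log2(CPM + 1), row gene over column gene, for the 36 pairs of the 9 genes, ordered by mean CPM, with red for a higher row gene, blue for a lower one and an asterisk for an adjusted p under 0.05 (limma). Pairs without an asterisk include Eif2ak3 over Eif2ak2 at 0.39 and Ppp1r15a over Ppp1r15b at 0.67.

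Ddit3, the gene of CHOP (chromosome 10, 127290774 to 127296288), was the most variable of the 9, with a coefficient of variation of 58.9%. It had 24.6, 27.4, 7.53 and 9.55 CPM, which stand for 249, 246, 42 and 69 reads. Replicates 1 and 2 were above replicates 3 and 4, the opposite of Ppp1r15a, which is also a known target of the stress response. Ppp1r15a exceeded Ddit3 4.63-fold (log2 difference 2.21, standard error 0.55, limma adjusted p = 0.00987, 4 of 4 libraries), by 0.92 in replicates 1 and 2 and by 3.499 in replicates 3 and 4. Per length the call was lost (log2 difference 1.47, adjusted p = 0.0540), and it was also lost without the moderated variance (adjusted p = 0.0815).

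Ddit3 lay above Eif2ak4 on both scales, while its place relative to Eif2ak1, Eif2ak2 and Eif2ak3 depended on the scale. Over Eif2ak4 it was called higher in CPM (log2 difference 0.88, standard error 0.33, limma adjusted p = 0.0453, 4 of 4 libraries) and per length (log2 difference 2.71, limma adjusted p = 0.000612). The CPM difference over Eif2ak4 averaged 1.54 in replicates 1 and 2 and 0.23 in replicates 3 and 4. It was only 0.08 in replicate 4. In CPM, Ddit3 was below Eif2ak3 (log2 difference -1.33, standard error 0.39, limma adjusted p = 0.0198, 4 of 4 libraries). The gap was small at -0.49 (replicates 1 and 2) and larger at -2.16 (replicates 3 and 4). Per length the direction turned (log2 difference 0.41, limma adjusted p = 0.385), since the exonic length of Ddit3 is 1713 bases and that of Eif2ak3 is 6026 bases. Without replicate 3 or without replicate 4 the CPM call was lost (adjusted p = 0.0711 and 0.0812), as it was with the ordinary variance (adjusted p = 0.0999). Ddit3 and Eif2ak1 had nearly the same mean CPM, 17.3 ± 10.2 and 16.3 ± 5.49 (SD, n = 4), and per length Ddit3 was called higher (log2 difference of Eif2ak1 over Ddit3 -1.54, limma adjusted p = 0.00197). Ddit3 over Eif2s1 did not pass in CPM (log2 difference 0.64, standard error 0.39, limma adjusted p = 0.173), with 1.45 in replicates 1 and 2 and -0.17 in replicates 3 and 4, but passed per length (log2 difference 2.02, limma adjusted p = 0.00407). It also passed in CPM without replicate 3 (log2 difference 1.02, limma adjusted p = 0.0454). With the library pair fitted it passed (limma adjusted p = 0.00236), but not on library-pair means (limma adjusted p = 0.361). The pass with the library pair fitted rests on the spread within pairs only and is not read as a ranking.

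**Figure D4:**
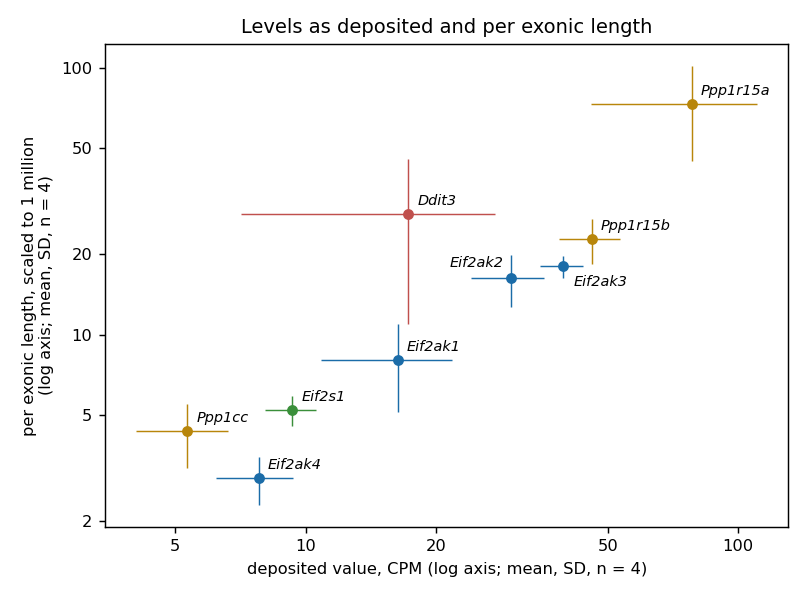
Mean and SD (n = 4) of each gene as deposited (CPM, horizontal log axis) and per exonic length scaled to 1000000 (vertical log axis), coloured by role. The mean of Ddit3 per length, 28.3, lies above that of Eif2ak3, 18.0, with overlapping SD bars, while its mean CPM lies below.

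Ddit3 also overlaps other genes. The last 68 exonic bases of Ddit3 lie over the 3′ end of Mars, the gene of methionyl-tRNA synthetase on the opposite strand (127296221 to 127311786). Mars had 57.8, 57.8, 19.7 and 22.1 CPM, a mean of 39.4 CPM that was above that of Ddit3. Its log2 difference between replicates 1 and 2 and replicates 3 and 4 was 1.42, beside 1.51 for Ddit3. With strand use not given, reads near this end may belong to either gene, and the part of Mars in the level of Ddit3 was not tested. GENCODE also has a second protein-coding gene with the symbol Ddit3 (127290829 to 127293753) on the same strand, which shares 105 exonic bases with the gene measured here. How reads of that shared stretch were counted is not known, so the level of Ddit3 is uncertain by their number. Gm4189, on the opposite strand over 13 bases, had a mean of 0.460 CPM.

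Of 13 stress response genes listed downstream, 11 were tested, 5 of them called higher than Ddit3, 2 lower and 4 neither (limma), beside 32.7% of all genes higher and 37.5% lower. Atf4, the transcription factor gene upstream of Ddit3, had 209, 220, 390 and 338 CPM, and its log2 difference over Ddit3 was 4.13 (limma adjusted p = 0.000379). Atf3, a factor induced by injury, had 3.45, 4.01, 4.12 and 4.01 CPM and was below Ddit3 (log2 difference -1.71, limma adjusted p = 0.00578). Its library pairs were unequal too, at -2.51 (replicates 1 and 2) and -0.90 (replicates 3 and 4). Per length the counts were 4 higher and 3 lower, with no share of all genes computed on that scale. Chac1 and Tnfrsf10b, a target of CHOP, had means under 1 CPM.

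Between the library pairs, 6 of the 9 members did not overlap, beside 78.5% of all genes tested, a share no larger than that of other genes. Ddit3, Eif2ak1, Eif2ak2, Ppp1r15b and Ppp1cc were higher in replicates 1 and 2 and Ppp1r15a was higher in replicates 3 and 4. Of these, 2 (Ddit3 and Ppp1r15a) also differed by at least 2-fold in their means, as did 37% of all genes tested. Their log2 differences, replicates 1 and 2 minus replicates 3 and 4, were 1.51 and -1.07, and the median of all genes tested was 0.16. A larger difference in either direction was found for 13.1% of genes tested in the case of Ddit3 and for 27.0% in that of Ppp1r15a. Without ribosomal RNA and mitochondrially encoded genes the median of all genes became 0.01, the 9 members kept their directions, and Eif2ak3 (-0.35) and Eif2s1 (-0.29) no longer overlapped between the library pairs. The share of all genes without overlap was not computed on that scale, so this change is not read as a trait of the members.

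The downstream genes also moved in both directions between the library pairs. Of the 11 tested, 3 were higher in replicates 1 and 2 without overlap, 6 were higher in replicates 3 and 4 and 2 overlapped, beside 45.8% and 32.6% of all genes in these directions. Ddit4 (236, 300.03, 21.2 and 28.8 CPM) and Nupr1 (14.7, 14.1, 4.48 and 4.29 CPM) moved like Ddit3. Cebpb (6.71, 5.46, 24.2 and 21.5 CPM), of the C/EBP family with which CHOP pairs, and Trib3 (2.76, 5.68, 11.1 and 8.72 CPM), a pseudokinase that ATF4 and CHOP induce, moved like Ppp1r15a.

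**Figure D5:**
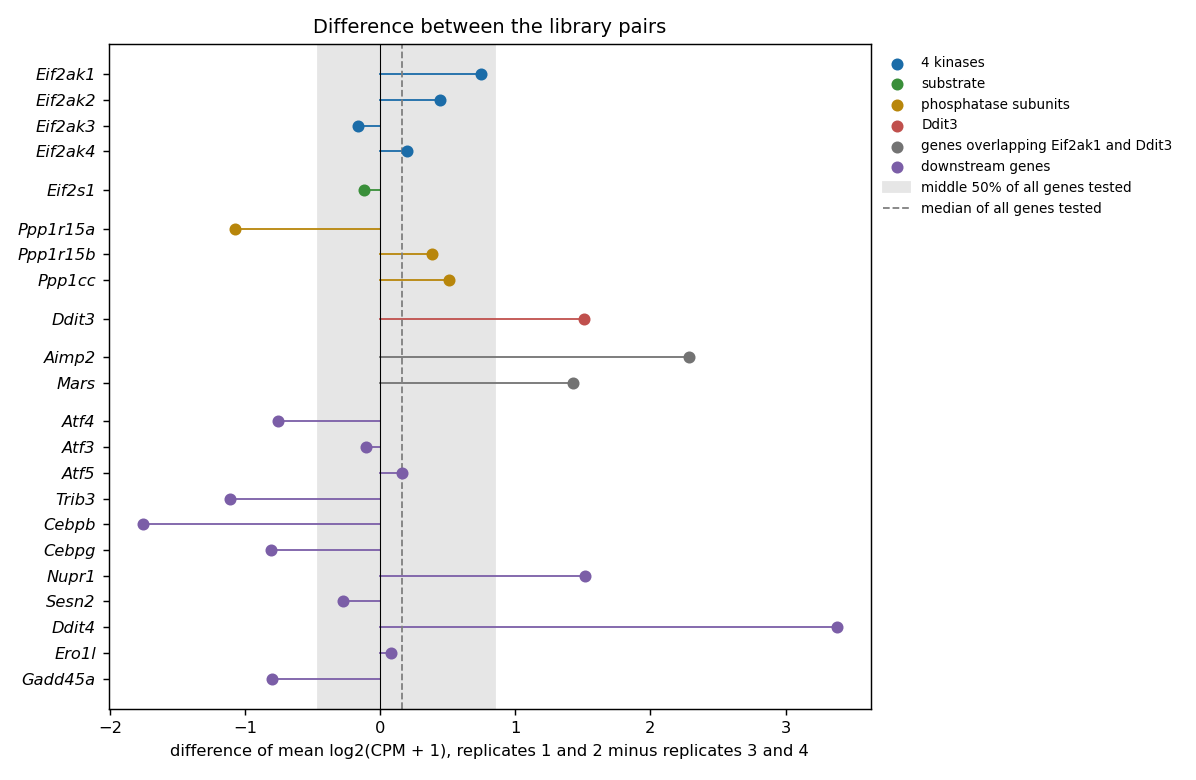
Difference of mean log2(CPM + 1), replicates 1 and 2 minus replicates 3 and 4, for the 9 genes, for the genes that overlap Eif2ak1 and Ddit3, and for 11 downstream genes, with the middle 50% and the median of all genes tested shaded and dashed. Ddit3 lies at 1.51 and Ppp1r15a at -1.07, on opposite sides of the shaded range.

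Of 9 genes tested that are known to act on the kinases, 7 were called higher than Eif2s1, none lower and 2 neither in CPM, beside 45.9% of all genes higher and 30.3% lower, and per length 6 were called higher, none lower and 3 neither. Against Eif2ak3, 3 were called higher, 3 lower and 3 neither in CPM, beside 17.8% of all genes higher and 62.4% lower. Per length 4 were higher than Eif2ak3, 3 lower and 2 neither. The shares of all genes are for CPM and were not computed per length. Hspa5, the gene of BiP, the chaperone that keeps PERK inactive, had 3402, 3993, 1020 and 993 CPM and was higher in replicates 1 and 2. Its log2 difference over Eif2ak3 was 5.59 (standard error 0.46, limma adjusted p = 7.75e-05, 4 of 4 libraries). Read by library pair, Hspa5 stood higher over Eif2ak3 at 6.61 (replicates 1 and 2) than at 4.57 (replicates 3 and 4). Dnajc3, the gene of the kinase inhibitor p58IPK, had 70.3, 58.4, 63.7 and 58.1 CPM and Prkra, the gene of the PKR activator PACT, had 92.1, 99.9, 87.9 and 91.9 CPM. Both were called higher than Eif2ak3 (log2 differences 0.66 and 1.23, limma adjusted p = 0.0199 and 0.00174), and neither varied as Hspa5 did. The 3 called lower than Eif2ak3 were Abcf3 (log2 difference -0.88, limma adjusted p = 0.0322), Adar, an editing enzyme of double-stranded RNA (-2.22, adjusted p = 0.00119), and Oma1, a mitochondrial protease (-2.58, adjusted p = 0.000148). Of 4 other genes of endoplasmic reticulum stress sensing, none was called higher than Eif2ak3, 2 lower and 2 neither in CPM. Per length 2 were higher and 2 lower, again without a share of all genes. Ern1, the gene of IRE1α, was far below Eif2ak3 at 3.75, 4.12, 3.77 and 3.74 CPM (log2 difference -3.05, standard error 0.20, limma adjusted p = 4.05e-05). Atf6 had 21.5, 22.2, 24.4 and 31.1 CPM and was also below Eif2ak3 (log2 difference -0.65, standard error 0.20, limma adjusted p = 0.0249). Atf6b and Xbp1, the gene whose mRNA IRE1α splices, did not pass, with log2 differences of 0.77 and 0.20 over Eif2ak3 (limma adjusted p = 0.0857 and 0.581).

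The protein-coding genes whose 4 values came closest to those of a member were found by the root mean square difference of log2(CPM + 1) over the 4 libraries. For Ddit3 they were Fbp2 (0.0660), Pik3r4 (0.0748) and Akr1e1 (0.111). For Ppp1r15a they were Elmod2 (0.0748), Kat2b (0.0758) and Ccnt1 (0.0768). For Eif2s1 they were Slc25a45 (0.0690), Cacnb1 (0.0850) and Trmt1 (0.0976).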

How the data were processed

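Per the labels' protocols, ganglion RNA was extracted in TRIzol, ribosomal RNA was removed (RiboCop), and Lexogen's QuantSeq chemistry, a 3′ end method, gave the libraries. GRCm38.p4 and mm10 are the builds in the submitters' processing notes, which also name Cufflinks 2.2.1, Bowtie2 2.2.9, TopHat2 2.1.1 and FastQC 0.11.5 and assign no roles. How reads were counted, on which annotation and with what use of strand is not given in the sources used here. Values are deposited as TPM, per the file headers, but behave as CPM: at least 98.27% of values above 0 in each library were whole multiples (within 0.05) of the library's smallest step, whatever the gene, and columns total 1000000. The deposited CPM values were used as they are, with no count model. The steps imply 10138773, 8975728, 5576819 and 7223786 reads in replicates 1 to 4.

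For 99.2% of gene identifiers, type and exonic length were taken from GENCODE M21 (GRCm38). The within-library difference of log2(CPM + 1) between each member and every other gene with a mean of at least 1 CPM was tested against 0 with limma 3.58.1 in R 4.3.3 (moderated variance, two-sided, Benjamini-Hochberg over all pairs). The fold of a pair is on the log2(CPM + 1) scale, so low genes appear closer than they are. The test was checked on simulated data with independent noise in each gene and library. No library pairs were simulated, so the check does not cover the split seen here. Python 3.11.15, numpy 2.4.6, pandas 2.3.3 and scipy 1.17.1 did the rest. Promoters are from RefSeq (GRCm38.p6). Named are the 9 members, a fixed list of gene pairs, up to 4 genes of each pathway list (more where a member is compared with them), and the 3 genes nearest to Ddit3, Ppp1r15a and Eif2s1. Aimp2, Mars and the other overlapping genes, and the downstream genes picked to show the library split, were named after their values were seen. The members and lists were chosen with earlier results of these data known. Alternatives left out each replicate or changed the pseudocount, the filter, exonic length, ribosomal and mitochondrial genes, the variance and the treatment of the library pairs.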

Additional observations from a re-analysis of the deposited data

Results flagged for a closer look

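A library was set apart where its distance to the nearest other library as a share of the range of the 4 exceeded the 95% critical value of Dixon. Of 98 quantities checked in this way 4 were, and chance alone does so for about 5%. Eif2ak3 had 32.6 CPM in replicate 2, below 41.2 to 41.7 CPM in the other 3 libraries. Ern1 had 4.12 CPM in replicate 2, above 3.74 to 3.77 CPM. Atf3 had 3.45 CPM in replicate 1, below 4.01 to 4.12 CPM. The log2 difference of Eif2ak2 over Eif2ak4 was 1.47 in replicate 4 and 1.91 to 1.94 in the other 3 libraries.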

How the results depend on the processing

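Of the 36 pairs between members, 28 passed as reported. The count was 27 with a pseudocount of 0.1, 29 with no filter on low values, 27 with a mean of at least 10 CPM, 26 per length, 28 without ribosomal RNA and mitochondrially encoded genes, 21 with the ordinary variance, 33 where the library pair was fitted, and 19 on library-pair means, which leave 1 residual degree of freedom. Leaving out each replicate gave 22 to 26 calls. Replicates 1 and 2 alone gave 31 calls and replicates 3 and 4 alone gave 30, 2 settings added after seeing the data. The share of all pairs called under each alternative is not given beside these counts. A rise or fall is therefore not read as a trait of the members. Over all genes, 102753 pairs of a member and another gene passed, against 183397 with no filter and 54772 with a mean of at least 10 CPM, where more and fewer genes were tested, and 94987 to 97657 with a replicate left out. Some differences turned. Ddit3 over Eif2ak3 was 0.41 per length. Ppp1r15a over Ppp1r15b was -0.052 in replicates 1 and 2 alone. Ddit3 over Eif2s1 was -0.17 and Ppp1ca over Ppp1cc -0.17 in replicates 3 and 4 alone. Per length the mean levels became 8.03 for Eif2ak1, 16.3 for Eif2ak2, 18.0 for Eif2ak3, 2.89 for Eif2ak4, 5.22 for Eif2s1, 22.8 for Ppp1r15b and 28.3 for Ddit3. The kinase shares became 35.7% for Eif2ak2 and 6.39% for Eif2ak4, those of the PP1 genes 24.1% for Ppp1ca, 63.9% for Ppp1cb and 12.1% for Ppp1cc, and the kinase to phosphatase ratio 0.481. These follow from the division by length. With the library pair fitted, Eif2ak3 over Eif2ak2, Ppp1r15a over Ppp1r15b, Ddit3 over Eif2s1 and Ppp1ca over Ppp1cc also passed (limma adjusted p = 0.0136, 0.000580, 0.00236 and 0.00804). None of these passed on library-pair means (0.584, 0.333, 0.361 and 0.550), and all but the first had opposite signs in the library pairs. The fit with the library pair uses the spread within pairs only, so its passes are not read as rankings. Ppp1ca had no value with a mean of at least 10 CPM. No paired analysis was possible because all 4 libraries belong to 1 group. The reads behind Ppp1cc, Eif2s1 and Eif2ak4 (24 to 89 in a library) limit their precision.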
